A study of Mus musculus with 6 samples.

Results

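Imprinted genes are genes for which only the copy inherited from 1 parent is active in some or all tissues, and 37 of them known in the mouse were followed here in mammary epithelial cells with and without Glis2. They were matched by symbol to Ensembl identifiers among the 54418 genes of the count table. In the mouse 16 of them are expressed from the maternal copy and 21 from the paternal copy, and these classes were kept apart. Mammary cells of 4-week-old female C57BL/6 mice were dissociated, stained with a viability dye and with antibodies against TER-119, CD31, CD45, CD24 and CD49f, and sorted by FACS. Libraries for strand-specific sequencing of total RNA were then made from 3 Glis2+/+ mice (WT) and 3 Glis2-/- mice (KO), 1 library per mouse. The KO mice carried a germline knockout of Glis2, so the allele was present in every tissue from conception on, and the labels do not give the gates with which the sorted cells were selected. The purpose of the comparison was to find out how loss of Glis2, a zinc finger transcription factor of the Gli-related family, altered gene expression in the mammary epithelium. The Glis2 transcript itself was at 21.8, 23.2 and 19.6 CPM (counts scaled to a common library size) in the WT mice and 10.1, 16.99 and 16.3 CPM in the KO mice, so reads of the gene were still counted in every KO library.

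Imprinting is set in the germ line, where DNA methylation is placed on the control region of an imprinted cluster in the egg or in the sperm and is then kept on that parental copy in the embryo. Within a cluster, maternally and paternally expressed genes often lie side by side, and a long noncoding RNA expressed from 1 parental copy is a common feature. Many imprinted genes act on growth of the fetus and placenta, and several, such as Igf2, Dlk1 and H19, are highest before birth and decline in most tissues afterwards. The deposited values sum the reads of both parental copies, so the results below are total levels and hold no information on which copy was read.

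The 37 members lay on 10 chromosomes, with 14 of them on chromosome 7, and 31 were annotated as protein-coding and 6 as noncoding. The libraries held 24996524 to 31393917 counts, and 35 of the 37 members had at least 10 counts in every library. A total of 36 members passed the filter on low counts. The exception was Magel2, a gene of the Prader-Willi region that encodes a MAGE-family ubiquitin ligase regulator, with 1, 4 and 5 counts in the WT libraries and 0 in each KO library. These counts are at the limit of detection and no fold was computed. None of the 8 basal and 8 luminal epithelial markers was at 0 in every library, and the 8 fibroblast markers summed to 2340 to 7830 CPM in WT and 2630 to 5990 CPM in KO libraries. In bulk samples such as these, fewer cells of a type and less RNA per cell cannot be told apart.

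Promoter sequences of 32 of the 37 members were found in the RefSeq promoter table for GRCm38.p6, and H19, Cdkn1c, Peg10, Sgce and Impact had no entry. The 250 bases before each RefSeq start were searched on both strands for the letters TGCCGC, the core motif bound by ZFP57, a zinc finger protein that protects methylation at imprinting control regions. The motif was present for 8 of the 32 members (25%), against 9.84% of the 27025 genes of the table. Paternally expressed members held it in 5 of 18 cases and maternally expressed members in 3 of 14. The members with a match were Copg2, Mcts2, Meg3, Mest, Nap1l5, Plagl1, Zdbf2 and Zim1. For each gene the window with the most CpG dinucleotides was taken, and the median over genes was 12 for the 32 members and 6 for all genes. Genes with several windows can gain from this, and there were 49 windows for the 32 members and 32851 for the 27025 genes. A match is a description of the letters and not a binding site. The stretches that follow belong to the 3 tested members whose levels did not overlap between the genotypes, Plagl1, Peg3 and Mcts2, and to Meg3, whose order of libraries was that of the fibroblast markers. Each is the part of the window with no annotated exon, read 5′ to 3′ on the strand of the gene, with the motif in capitals. In Plagl1 the match of the full window fell outside the stretch shown, and the window of Peg3 had none.
Plagl1 (chr10:13090582-13090690, plus strand): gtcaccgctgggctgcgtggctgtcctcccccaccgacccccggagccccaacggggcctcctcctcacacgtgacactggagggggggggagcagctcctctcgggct
Peg3 (chr7:6730432-6730577, minus strand): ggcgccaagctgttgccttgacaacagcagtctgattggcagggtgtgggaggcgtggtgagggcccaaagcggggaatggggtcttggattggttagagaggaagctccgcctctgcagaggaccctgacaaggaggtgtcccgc
Mcts2 (chr2:152686898-152687034, plus strand): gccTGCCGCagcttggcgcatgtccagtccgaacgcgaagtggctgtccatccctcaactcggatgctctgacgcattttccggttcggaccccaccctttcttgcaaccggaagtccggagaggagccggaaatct
Meg3 (chr12:109540746-109540995, plus strand): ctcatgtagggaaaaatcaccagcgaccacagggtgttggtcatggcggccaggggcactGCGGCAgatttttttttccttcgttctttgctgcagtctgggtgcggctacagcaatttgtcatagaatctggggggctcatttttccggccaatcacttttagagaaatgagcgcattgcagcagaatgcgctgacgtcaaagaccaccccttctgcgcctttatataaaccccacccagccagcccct

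Levels of different genes were compared on the TPM scale, which takes the length of the transcripts into account, whereas CPM serve to compare libraries. Gnas, which encodes the alpha subunit of the stimulatory G protein and is imprinted in only some tissues and transcripts, had the highest level among the members, with a mean of 79.1 TPM over the 6 libraries. It made up 36.0% to 41.7% of the summed TPM of the members in each library. H13, a signal peptide peptidase, followed at 11.9 TPM, and Commd1, Ube3a, Blcap and Igf2r lay between 8.30 and 9.92 TPM. The 6 highest maternally expressed members were thus all genes whose imprinting is limited to some tissues, transcripts or stages. Among the paternally expressed members, Zrsr1, a retrogene related to a splicing factor subunit, was highest at 8.13 TPM. Mcts2, Airn, Peg3, Plagl1 and Impact had mean levels of 4.53, 4.53, 4.10, 3.73 and 3.41 TPM. Of the genes best known for their fetal expression, H19 had a mean of 5.2 TPM, Igf2 of 2.39 TPM and Dlk1 of 1.30 TPM. At the bottom of the order were Usp29, at 0.0717 TPM, and Magel2, at 0.00322 TPM.

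**Figure D1:**
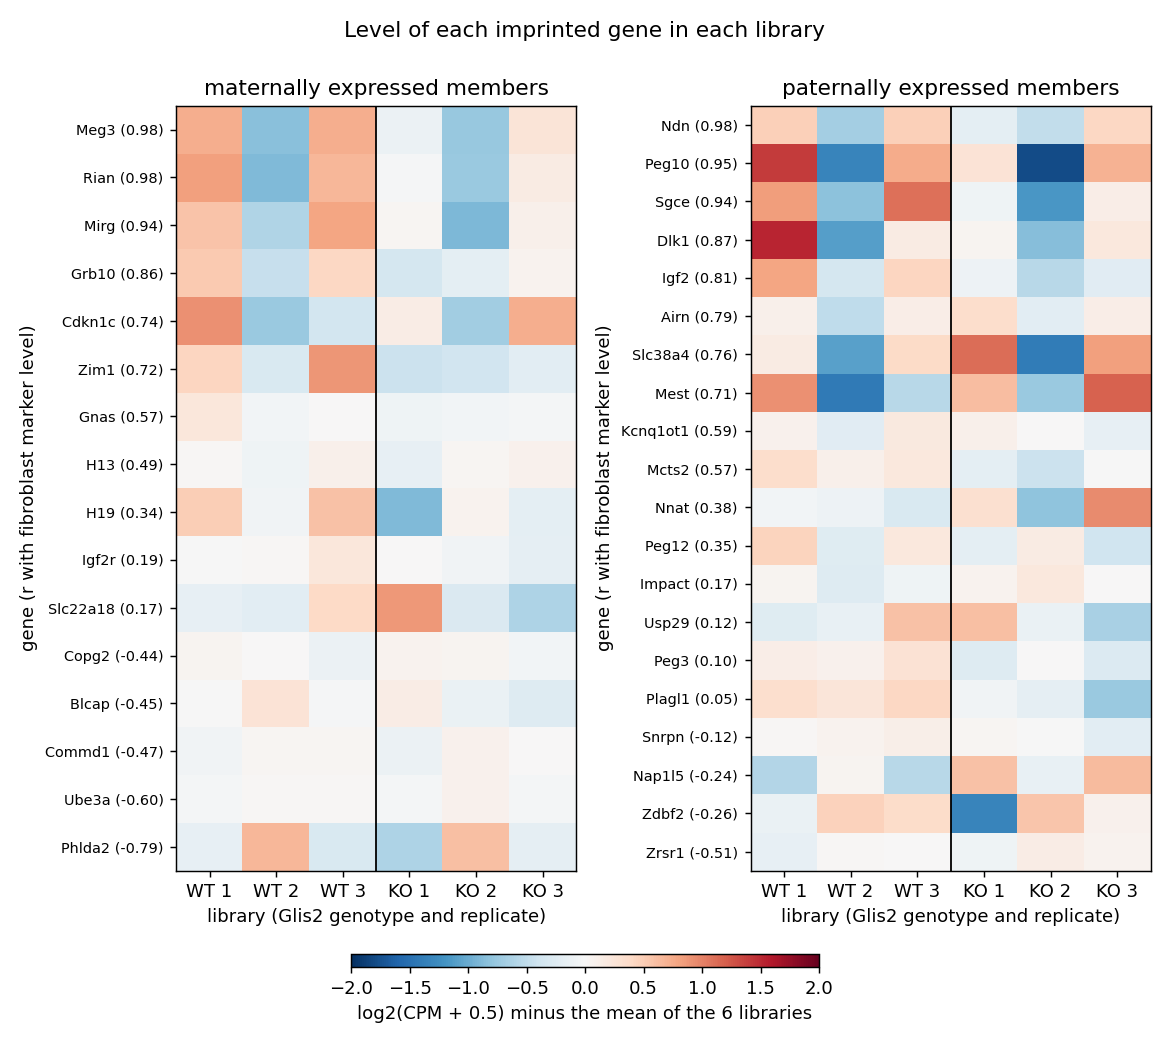
Heat map of the 36 members tested in the 3 WT and 3 KO libraries, coloured by log2(CPM + 0.5) minus the mean of the 6 libraries and ordered by r with the fibroblast markers, with red above and blue below the mean. Gnas, Ube3a, Commd1 and Copg2 are nearly white across the row, and Meg3, Rian, Peg10 and Sgce are darkest blue in WT replicate 2 and KO replicate 2.

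No member differed between the genotypes after adjustment over all genes. A call needed a Benjamini-Hochberg adjusted p no larger than 0.05 in edgeR's quasi-likelihood test and a log2 fold change of 0.58 or more in either direction. It was met by 0 of the 36 members and by 0 of the 21236 genes tested (0.0%). The smallest adjusted p was 0.906 among the members and 0.392 among all genes in edgeR. An unadjusted p under 0.05 was found for 1130 genes (5.32%), and DESeq2 with the same thresholds called 45 of 27248 genes (0.165%), none of them a member, the smallest adjusted p of a member in DESeq2 being 0.369. With 3 mice in each group and a common biological coefficient of variation of 37.4%, the p-values measure only the spread between these mice. Log2 fold changes are given in the direction KO minus WT, each with its standard error.

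Of the 36 members, 25 had a log2 fold change below 0 (69.4%), against 48.4% of all genes tested. The 16 maternally expressed members had 12 below and 4 above 0, with a median of -0.14 and a range of -0.85 to 0.13. The 20 paternally expressed members tested had 13 below and 7 above 0, with a median of -0.19 and a range of -0.91 to 1.25. Over all genes tested the median was 0.01. On the TPM scales the signs of Cdkn1c, Slc22a18, Copg2, Ube3a, Zrsr1 and Impact, all between 0.00 and 0.18 in edgeR, turned negative. Without adjustment, 5 members had p under 0.05 in edgeR (13.9%), all with the lower level in KO, beside 2.33% of all genes in that direction, and none had the higher level in KO, beside 2.99% of all genes. They were the maternally expressed H19 and the paternally expressed Plagl1, Peg3, Igf2 and Mcts2. In 3 of them, Plagl1, Peg3 and Mcts2, every KO library was below every WT library (8.33% of the members), which was the case for 5.5% of all genes, and this share of the members is near the background. No member had every KO library above every WT library, beside 6.23% of all genes. In all counts the members of a cluster share a locus and some share exons, so they are not independent observations.

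**Figure D2:**
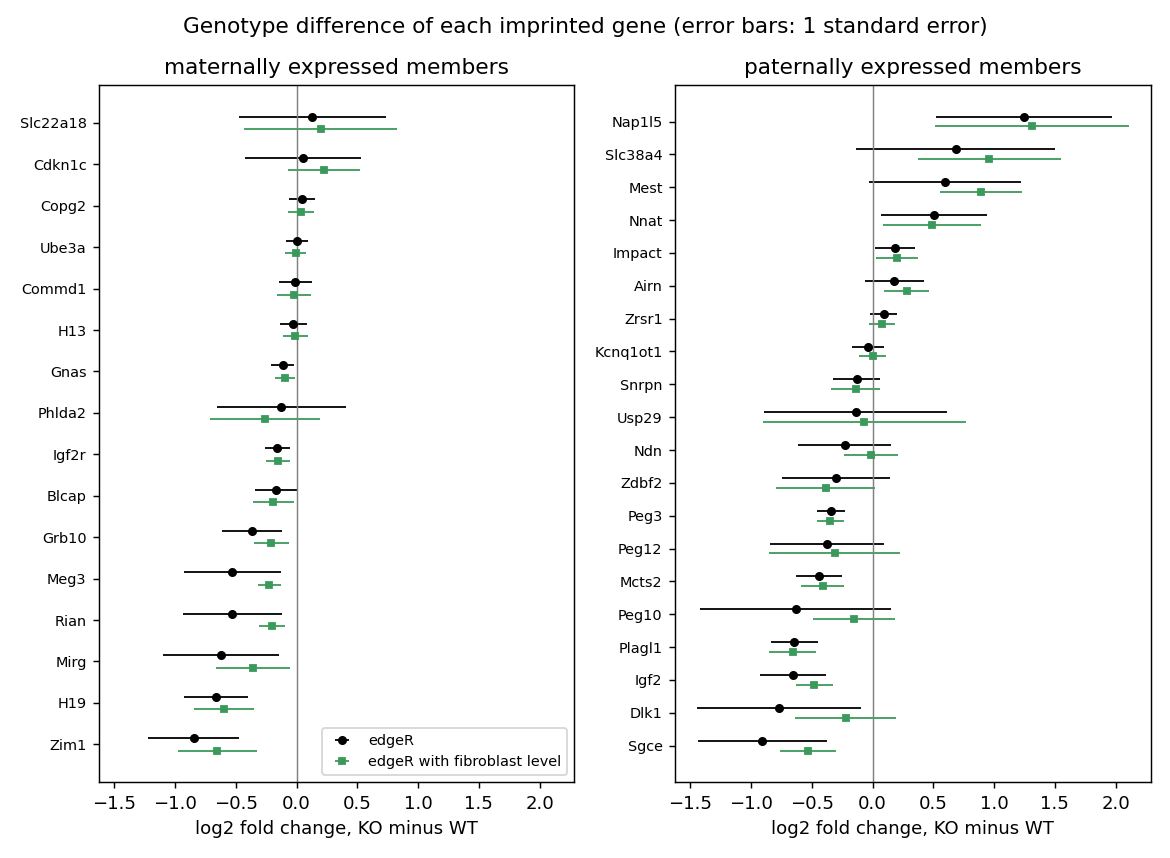
Log2 fold change, KO minus WT, of the 16 maternally and 20 paternally expressed members tested, from edgeR (black circles) and from edgeR with the fibroblast marker level as a covariate (green squares), with bars of 1 standard error. The estimates for Plagl1, Peg3 and Mcts2 are nearly equal in both fits, whereas those of Meg3, Rian, Dlk1 and Peg10 lie nearer to 0 with the covariate.

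Plagl1 (ENSMUSG00000019817, chr10:13060504-13131694 of GRCm38, plus strand) encodes the zinc finger transcription factor ZAC1, which restrains cell division. Its level was 34.6, 32.6 and 36.6 CPM in the WT mice and 26.2, 24.1 and 16.1 CPM in the KO mice. All 3 KO libraries were lower than all 3 WT libraries, and the lowest was KO replicate 3. The means were 34.6 ± 2.01 CPM in WT and 22.1 ± 5.32 CPM in KO (SD, n = 3), and the log2 fold change was -0.64 (SE 0.19), with an unadjusted p of 0.00930 and an adjusted p of 0.906 in edgeR. Plagl1 was the member with the smallest unadjusted p, and in DESeq2 the unadjusted p was 0.00266 and the adjusted p 0.369.

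Peg3 (ENSMUSG00000002265, chr7:6703892-6730431, minus strand) encodes another zinc finger protein and is known for its role in maternal care and in body growth. Its level was 137, 133 and 152 CPM in WT and 104, 125 and 103 CPM in KO. The groups did not overlap, with KO replicate 2 close to the lowest WT library. The log2 fold change was -0.34 (SE 0.11, unadjusted p 0.0160, edgeR). Zim1, a maternally expressed zinc finger gene beside Peg3, was measured at 5.54, 3.12 and 7.79 CPM in WT and 2.84, 2.94 and 3.36 CPM in KO. WT replicate 2 lay among the KO libraries, and the log2 fold change was -0.85 (SE 0.38), with an unadjusted p of 0.0525 in edgeR. Usp29, a deubiquitinase gene that shares the promoter region of Peg3, lay between 0.320 and 1.44 CPM in the 6 libraries, and both the highest and the lowest of these were KO libraries.

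Mcts2 (ENSMUSG00000042814, chr2:152687035-152687946, plus strand) is a retrogene that lies within the gene H13 on the same strand, with no exon base in common. Its level was 19, 15.8 and 17.1 CPM in WT and 12.8, 10.8 and 14.6 CPM in KO, without overlap. The log2 fold change was -0.44 (SE 0.19, unadjusted p 0.0447, edgeR). The host gene H13 was at 98.4, 91.0 and 103 CPM in WT and 86.0, 98.5 and 102 CPM in KO, with a log2 fold change of -0.03 (SE 0.11). The libraries were made from total RNA, which can hold unspliced transcripts of H13, and the share of such reads assigned to Mcts2 was not measured.

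H19 (ENSMUSG00000000031, chr7:142575529-142578143, minus strand), a noncoding RNA abundant in fetal tissues, was at 53.0, 35.8 and 56.9 CPM in WT and 20.0, 39.5 and 32.6 CPM in KO. WT replicate 2 was below KO replicate 2, so the genotypes overlapped. The log2 fold change was -0.66 (SE 0.26, unadjusted p 0.0343, edgeR). Igf2 (ENSMUSG00000048583, chr7:142650766-142666816, minus strand), the fetal growth factor expressed from the other parental copy of the same cluster, was at 59.3, 26.6 and 46.2 CPM in WT and 31.8, 23.1 and 29.2 CPM in KO. Here too WT replicate 2 lay among the KO libraries. The log2 fold change was -0.65 (SE 0.27, unadjusted p 0.0406, edgeR). With each of the 6 libraries left out in turn, the unadjusted p stayed under 0.05 in 6 of 6 fits for Plagl1, 4 for Peg3, 2 for Mcts2 (without WT replicate 2 or KO replicate 3), 2 for H19 (without WT replicate 2 or KO replicate 2) and 1 for Igf2 (without WT replicate 2). In these fits the log2 fold change lay between -0.89 (without KO replicate 2) and -0.43 (without KO replicate 1) for H19 and between -0.91 (without WT replicate 2) and -0.40 (without WT replicate 1) for Igf2.

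The Kcnq1 cluster also lies on chromosome 7. Its member Cdkn1c, which encodes the cyclin-dependent kinase inhibitor p57, was at 44.7, 13.9 and 18 CPM in WT and 26.1, 14.2 and 39.2 CPM in KO. The levels varied as much within a genotype as between them, and the log2 fold change was 0.05 (SE 0.48). Kcnq1ot1, the long noncoding RNA that is paternally expressed and silences this cluster, was at 227, 184 and 245 CPM in WT and 231, 216 and 192 CPM in KO, with a log2 fold change of -0.04 (SE 0.13). Phlda2, which restrains placental growth, and Slc22a18, a transporter gene, were sparse at 1.2 to 3.64 and 0.831 to 3.24 CPM, with log2 fold changes of -0.13 (SE 0.53) and 0.13 (SE 0.61). The difference between these genes and those of the Igf2 cluster was not tested.

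At the Igf2r cluster on chromosome 17, Igf2r encodes the receptor that removes IGF2 from the cell surface, and Airn is the paternally expressed noncoding RNA antisense to it. Igf2r was at 307, 316 and 361 CPM in WT and 312, 295 and 274 CPM in KO, with a log2 fold change of -0.16 (SE 0.10). Airn was at 16.5, 10.6 and 16.9 CPM in WT and 19.8, 13.2 and 16.8 CPM in KO, with a log2 fold change of 0.18 (SE 0.24). The ranges of both genes overlapped between the genotypes. Grb10, an adaptor that restrains insulin and growth factor receptors, lay between 36.9 and 73.6 CPM, with a log2 fold change of -0.37 (SE 0.25).

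The genes with imprinting limited to some tissues, transcripts or stages were nearly constant. Gnas was at 645, 529 and 554 CPM in WT and 522, 535 and 539 CPM in KO, with a log2 fold change of -0.12 (SE 0.096). Ube3a, the ubiquitin ligase lost in Angelman syndrome and imprinted in neurons, was at 148, 154 and 153 CPM in WT and 147, 161 and 148 CPM in KO, with a log2 fold change of 0.00 (SE 0.09). Commd1, a regulator of copper transport, was at 24.4, 26.4 and 26.2 CPM in WT and 23.5, 27.3 and 25.7 CPM in KO. For these genes the libraries differed so little that the standard errors were among the smallest of the members. Copg2, a subunit of the coatomer, was at 53.7, 52.3 and 47.6 CPM in WT and 54.7, 53.9 and 49.9 CPM in KO, and Blcap, a small membrane protein, at 21.0, 25.6 and 20.7 CPM in WT and 23.3, 19.2 and 17.5 CPM in KO. Over the 8 members of this kind, the median ratio of the highest to the lowest of the 6 libraries was 1.22, and 7 of them stayed under 1.5, with Grb10 as the exception. Over the other 8 maternally expressed members that median was 3.13, over the paternally expressed members 2.46 and over all genes tested 1.92. The median log2 fold change was -0.07 over the members with limited imprinting and -0.53 over the other maternally expressed members, among which Meg3, Rian and Mirg belong to 1 locus. With the fibroblast marker level in the fit these medians were -0.06 and -0.24.

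The paternally expressed genes with the most even levels were Zrsr1, Impact, Snrpn and Kcnq1ot1. Zrsr1 was at 62.7, 71.4 and 70.6 CPM in WT and 66.5, 77.7 and 74.1 CPM in KO, with a log2 fold change of 0.09 (SE 0.11). Impact, which inhibits the stress kinase GCN2, was at 19.4, 15.5 and 17.5 CPM in WT and 19.5, 21.5 and 18.6 CPM in KO, with a log2 fold change of 0.18 (SE 0.16). Snrpn, which encodes a spliceosome protein of the Prader-Willi region, was at 10.5, 10.9 and 11.2 CPM in WT and 10.6, 10.3 and 8.88 CPM in KO. None of these genes stood apart between the genotypes. The estimate for Snrpn is uncertain, since 589 of its exon bases are also assigned to Gm38393 on the same strand, a model with 183 to 317 counts.

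In 8 members the highest library exceeded the lowest by more than 4 times, and all 8 were paternally expressed (Mest, Dlk1, Peg10, Sgce, Slc38a4, Nap1l5, Usp29 and Zdbf2). Mest, which encodes a hydrolase-like protein of growing mesoderm and adipose tissue, was at 36.8, 7.0 and 13.1 CPM in WT and 29.9, 11.4 and 44.8 CPM in KO. The spread within each genotype exceeded the difference between the means, and the log2 fold change was 0.59 (SE 0.63), with 0.10 when KO replicate 3 was left out and 1.498 when WT replicate 1 was left out. Nnat, a membrane protein gene within Blcap on the opposite strand, was at 5.38, 5.25 and 4.49 CPM in WT and 7.15, 3.01 and 11.3 CPM in KO, so that the KO libraries lay on both sides of the WT range. The log2 fold change was 0.51 (SE 0.44). Nap1l5 had the largest positive log2 fold change of the members, 1.25 (SE 0.72), but rested on 8 to 42 counts per library. Slc38a4, an amino acid transporter gene, ranged from 0.434 to 4.84 CPM with both extremes in KO libraries, and Zdbf2 ranged from 3.76 to 15.2 CPM, likewise with both in KO. Peg12 lay between 1.09 and 2.33 CPM, with a log2 fold change of -0.38 (SE 0.47).

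A set of imprinted genes varied with the fibroblast markers across the libraries of both genotypes. The fibroblast level, the mean log2 CPM of 8 collagen, proteoglycan and receptor genes of fibroblasts, was 7.89, 6.43 and 7.90 in the WT libraries and 7.31, 6.69 and 7.66 in the KO libraries. WT replicate 2 and KO replicate 2 were thus the lowest of their groups. Over the 6 libraries, Pearson's r with this level was at least 0.8 for 9 of the 36 members (25%), and for 7.4% of all genes tested. The points of such a correlation share depth and library preparation, and r is given as a description. Both parental classes were among the 9 genes, with Meg3 (r = 0.98), Rian (0.98), Mirg (0.94) and Grb10 (0.86) on the maternal side and Ndn (0.98), Peg10 (0.95), Sgce (0.94), Dlk1 (0.87) and Igf2 (0.81) on the paternal side. Their highest library exceeded their lowest by factors of 2.0 to 11.9, while the summed fibroblast markers varied by a factor of 3.35. Phlda2 ran opposite to the fibroblast level (r = -0.79), with its highest levels in WT replicate 2 and KO replicate 2.

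**Figure D3:**
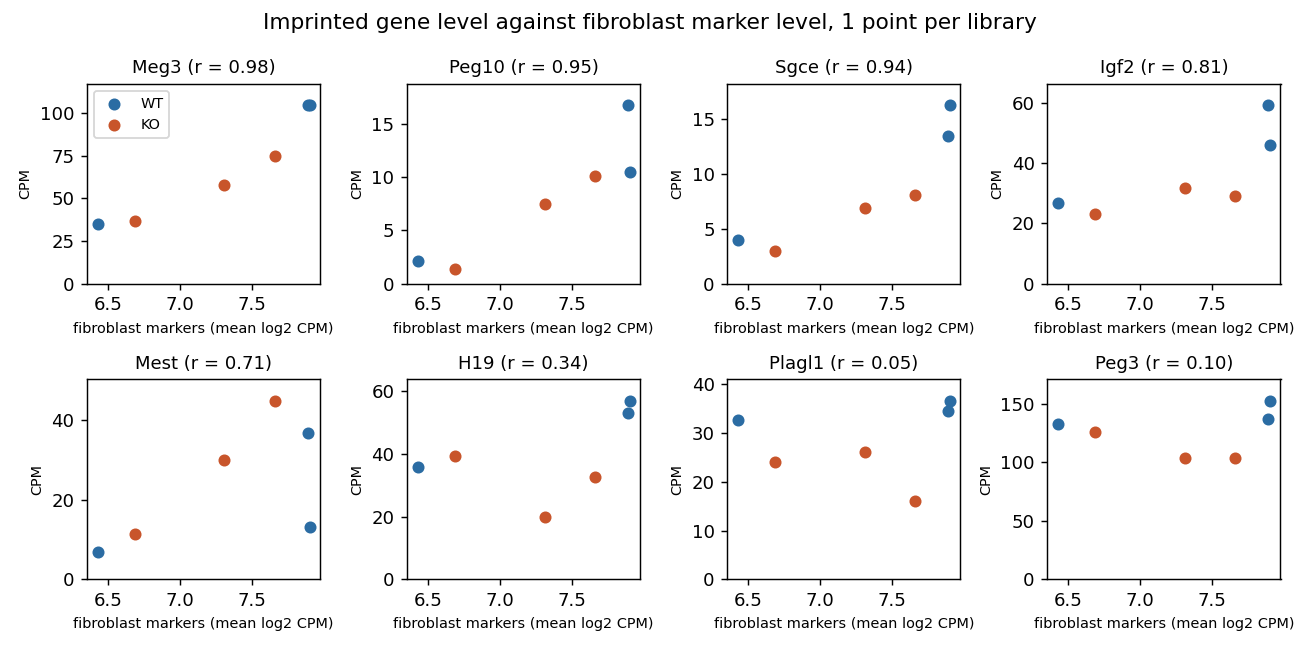
CPM of 8 imprinted genes against the fibroblast level (mean log2 CPM of 8 markers), 1 point per library, with WT in blue and KO in orange. Meg3 has the same order of libraries as the fibroblast level, with WT replicate 2 lowest and WT replicate 3 highest, whereas the KO points of Plagl1 lie below the WT points at every fibroblast level.

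Meg3 (ENSMUSG00000021268, chr12:109541001-109571726, plus strand), the long noncoding RNA of the Dlk1 cluster, was at 104.5, 35.1 and 104.6 CPM in WT and 57.7, 36.8 and 74.9 CPM in KO. Its order of libraries was that of the fibroblast level in all 6. The log2 fold change was -0.53 (SE 0.40) without the fibroblast level in the fit and -0.23 (SE 0.095) with it. Rian and Mirg, which are transcribed from the same maternal copy and carry small nucleolar RNAs and microRNAs, varied alike, from 31.3 to 103 CPM and from 1.90 to 7.18 CPM. Dlk1, a Notch-like protein of preadipocytes, was at 11.4, 1.44 and 4.15 CPM in WT and 3.84, 1.80 and 4.31 CPM in KO. WT replicate 1 stood above all others and decided the sign, since the log2 fold change was -0.77 (SE 0.68) with it and 0.23 without it. Peg10 and Sgce, neighbours on chromosome 6 that encode a retrotransposon-derived protein and a sarcoglycan, ranged from 1.40 to 16.8 CPM and from 3.01 to 16.2 CPM. Ndn, the growth suppressor necdin of the Prader-Willi region, lay between 4.83 and 11.3 CPM. For each of these genes the 2 lowest libraries were WT replicate 2 and KO replicate 2.

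With the fibroblast level as a covariate in edgeR, 8 members had an unadjusted p under 0.05 (22.2%), beside 8.75% of all genes, and the standard error was smaller for 28 of the 36. The smallest adjusted p of a member was 0.361, and 5 of all genes (0.0235%) met the call. Plagl1 kept its estimate, at -0.66 (SE 0.19), as did Peg3 at -0.35 (SE 0.11), Mcts2 at -0.41 (SE 0.18) and H19 at -0.60 (SE 0.25). Igf2 moved to -0.48 (SE 0.15), Sgce to -0.53 (SE 0.23) from -0.91 (SE 0.53), Peg10 to -0.15 (SE 0.34) from -0.63 (SE 0.78), and Ndn to -0.02 (SE 0.22) from -0.23 (SE 0.39). Mest went the other way, to 0.89 (SE 0.34). With the covariate the differences of Plagl1, Peg3, Mcts2 and H19 were about as large, and those of Peg10, Ndn, Dlk1 and the genes beside Meg3 were smaller. The r with the fibroblast level was 0.05 for Plagl1, 0.10 for Peg3, 0.57 for Mcts2 and 0.34 for H19. For Plagl1 and Peg3 the covariate thus had little to adjust, and their unchanged estimates are no test of a fibroblast contribution.

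The summed CPM of the basal and of the immune markers did not overlap between the genotypes. The 8 basal markers summed to 4110 to 5280 CPM in WT and 5610 to 6750 CPM in KO libraries, with all 8 above 0 in the fit and a median log2 fold change of 0.42, but their summed TPM, 409 to 491 in WT and 447 to 560 in KO, overlapped. The 7 immune markers summed to 26.2 to 55.5 CPM in WT and 61.5 to 118 CPM in KO, although an antibody against CD45 was among the stains. In the fit 6 of the 7 immune markers were above 0, with a median log2 fold change of 1.17, and the macrophage marker Adgre1 was below 0 at -1.56 (SE 0.66, unadjusted p 0.0431, edgeR). Most of the immune sum came from Cd74 and Ptprc. None of the basal or immune markers was at 0 in every library, and edgeR called 0 in either list, whereas in DESeq2 Cd74 had an adjusted p of 0.044. The luminal markers, at 3930 to 6470 CPM in WT and 3840 to 6630 CPM in KO, overlapped. The endothelial markers (145 to 681 and 233 to 709 CPM), adipocyte markers (52.3 to 309 and 94.8 to 263 CPM) and skeletal muscle markers (7.77 to 45.6 and 9.91 to 15.9 CPM) overlapped as well. In the fit, 6 of 6 skeletal muscle markers (median -1.10), 7 of 8 fibroblast markers (median -0.39) and 4 of 5 adipocyte markers (median -0.10) had log2 fold changes below 0, and edgeR called 0 in each of these lists. Among the adipocyte markers, Plin1 had -1.37 (SE 0.46, unadjusted p 0.0166, edgeR), Fabp4 -0.08 (SE 0.59), Cidec -0.10 (SE 1.51) and Lep 0.86 (SE 1.24). Adipoq, with 0 to 106 counts, had -2.16 (SE 1.07). It was lower in every KO library than in every WT library, beside 5.5% of all genes tested. Fabp4, at 46.3 to 293.6 CPM in WT and 89.0 to 255.6 CPM in KO, made up most of the adipocyte sum. The part of the basal, immune, muscle and adipocyte cells in the values of Plagl1, Peg3 and Mcts2 was not tested.

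Ratios within a locus compare the paternally with the maternally expressed gene in the same library and need no scaling between libraries. Of 10 such pairs, 2 did not overlap between the genotypes, and for comparison the levels of 11.7% of all single genes tested did not overlap. The log2 ratio of Mcts2 to its host H13 was -2.37, -2.52 and -2.59 in WT and -2.75, -3.19 and -2.81 in KO, a difference of -0.42. The log2 ratio of Zrsr1 to its host Commd1, in which it lies on the opposite strand with 412 exon bases in common, was 1.36, 1.43 and 1.43 in WT and 1.5, 1.51 and 1.53 in KO, a difference of 0.10. These are opposite in direction. When computed from TPM, the ratio of Mcts2 to H13 still did not overlap, whereas that of Zrsr1 to Commd1 did, at -0.55 to -0.12 in WT and -0.35 to 0.00 in KO. In both pairs the two-sided exact permutation test gave p = 0.1, the smallest value that 3 against 3 libraries allow, and 0.5 after Benjamini-Hochberg adjustment over the 10 pairs.

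The log2 ratio of Igf2 to H19 was -0.19 ± 0.31 in WT and -0.09 ± 0.72 in KO (SD, n = 3 each, exact permutation p = 0.8), and the KO libraries ran from -0.77 to 0.67. With 3 against 3 libraries this test cannot reach p under 0.05, so it cannot show whether the balance within a pair shifted. The ratio of Dlk1 to Meg3 was -4.15 ± 0.82 and -4.12 ± 0.22, and that of Kcnq1ot1 to Cdkn1c was 3.28 ± 0.81 and 3.12 ± 0.82. For Airn to Igf2r the ratios were -4.51 ± 0.35 and -4.16 ± 0.28, and for Peg3 to Zim1 they were 4.77 ± 0.57 and 5.18 ± 0.23. Mest to Copg2, which share 912 exon bases on opposite strands, had -1.77 ± 1.18 and -1.09 ± 1.06. The remaining ratios were -2.15 ± 0.17 and -1.67 ± 1.02 for Nnat to Blcap and -3.80 ± 0.03 and -3.94 ± 0.14 for Snrpn to Ube3a. None of these 8 pairs was apart, with exact permutation p between 0.3 and 1.0.

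**Figure D4:**
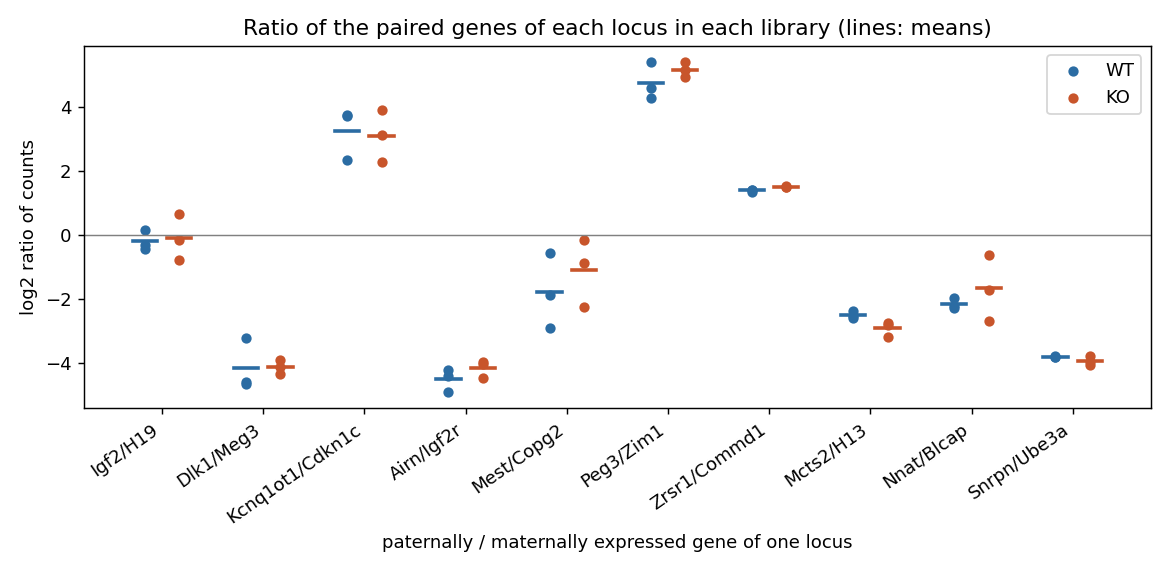
Log2 ratio of the paternally to the maternally expressed gene of 10 loci in each library, with WT and KO points side by side and their means. On this scale of counts, the points of Mcts2/H13 and Zrsr1/Commd1 do not overlap between the genotypes, and the widest spreads within a genotype are those of Mest/Copg2.

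A further 22 imprinted genes outside the members were examined as a list, of which 15 passed the filter. Of these, 6 were above and 9 below 0, with a median log2 fold change of -0.10, and 0 were called by edgeR or DESeq2. Osbpl5, an oxysterol-binding protein gene of the Kcnq1 cluster, was at 36.7, 36.8 and 34.2 CPM in WT and 44.0, 47.0 and 50.9 CPM in KO, a log2 fold change of 0.40 (SE 0.12, unadjusted p 0.00779, edgeR). Slc22a3, an organic cation transporter gene beside Igf2r, was at 3.73, 2.77 and 4.49 CPM in WT and 1.72, 0.534 and 1.63 CPM in KO, a log2 fold change of -1.5 (SE 0.51, unadjusted p 0.0172, edgeR) from 16 to 117 counts. In both genes the genotypes did not overlap, in opposite directions. Of the 15 genes, 1 was thus apart with the higher level in KO and 1 with the lower, beside 6.23% and 5.5% of all genes tested.

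Genes that place or keep imprints, together with Tet1, Tet2 and Tet3, whose products act to remove DNA methylation, formed another list of 15. In this list 13 passed the filter, with 6 above and 7 below 0, and 0 were called by edgeR or DESeq2. Tet1, Tet2 and Tet3 were among those above 0, at 0.22 (SE 0.18), 0.11 (SE 0.11) and 0.01 (SE 0.10). Dnmt1, the maintenance DNA methyltransferase, was at 287, 347 and 277 CPM in WT and 227, 252 and 244 CPM in KO, a log2 fold change of -0.33 (SE 0.11, unadjusted p 0.0156, edgeR). Smchd1, a chromatin protein needed for silencing at several imprinted clusters, was at 192, 190 and 187 CPM in WT and 145, 163 and 161 CPM in KO, a log2 fold change of -0.28 (SE 0.09, unadjusted p 0.0144, edgeR). Every KO library was below every WT library for both genes, 2 of the 13 tested, beside 5.5% of all genes tested. The adjusted p in edgeR was 0.906 for each. Uhrf1, which guides DNMT1 to newly copied DNA, had a log2 fold change of -0.38 (SE 0.18). Zfp57, whose motif was searched above, had 0.26 (SE 0.56), and its partner Trim28 had -0.03. Ctcf, which insulates Igf2 from its enhancers on the maternal copy, and Dnmt3a, which sets methylation in the germ line, had -0.01 each. Dppa3, an oocyte and early embryo protein, had 0 counts in every library, and Dnmt3l had 0 to 13.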

How the data were processed

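RNA from sorted mammary cells of 3 WT and 3 KO mice was sequenced. The deposited estimated counts per gene were made by the authors with Salmon 1.2.1 on mm10 with the genome as decoy summed over transcripts and rounded to whole numbers, and a second table holds log2 TPM values, also made by the authors. Symbols, positions and overlaps came from the GENCODE annotation of GRCm38 (the same build), with 54166 of 54418 identifiers matched. The strand setting of the quantification is not given in the sources used here.

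Genotypes were compared with edgeR 4.0.16 in R 4.3.3 (filterByExpr, TMM, quasi-likelihood test, Benjamini-Hochberg adjustment over 21236 genes), with calls at an adjusted p no larger than 0.05 and a log2 fold change of 0.58 or more in either direction. Standard errors were derived from the fold change and the F statistic. DESeq2 1.42.0 with apeglm 1.24.0, limma 3.58.1 on log2(TPM + 1) and log2(TPM + 0.1), other scalings and filters, a replicate block, a fibroblast covariate and omission of each library were alternatives. CPM are TMM-scaled. Ratios used counts plus 0.5. The functions were tested on simulated data. The members, lists, fibroblast level and pairs were chosen with earlier results of these data known. Values per library are given for members with at least 10 counts in every library that had an unadjusted p under 0.05 or did not overlap, for the 6 highest of each class by TPM, for both genes of each ratio and for a member at 0 in 1 genotype only. A copy of part of Meg3, Gm27000 with 0 to 22 counts, makes its counts slightly uncertain. The counts of Usp29, 10 to 37, are more uncertain. It shares 253 bases at 97.2% identity with the pseudogene Gm17132, which had 294 to 374 counts. No per-sample column was left out.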

Additional observations from a re-analysis of the deposited data

How the results depend on the processing

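No member was called under any alternative. The number of genes called, 0 in edgeR, was 45 with DESeq2 and apeglm, 40 without a filter on low counts, 7 with limma on log2(TPM + 0.1), 5 with the fibroblast covariate and 0 in the others, including each omission of 1 library (0 to 0). Maternally expressed members with an unadjusted p under 0.05, 1 in the main analysis, numbered 2 with DESeq2, 4 without a filter, 2 with log2(TPM + 1), 2 with log2(TPM + 0.1), 2 with the covariate and 0 to 6 with 1 library left out. The paternally expressed ones, 4 in the main analysis, ranged from 1 to 6 with 1 library left out and were 6 with the covariate. Without WT replicate 2 the count was 6 in each class, and without WT replicate 3 or KO replicate 1 it was Plagl1 alone. The pairs of genes apart, 2 in the main analysis, were 1 when computed from TPM (Mcts2/H13) and 2 to 4 with 1 library left out. The cause was not tested in any of these cases.

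The medians of both classes were below 0 under every alternative, from -0.24 to -0.13 (maternal) and -0.25 to -0.046 (paternal) with 1 library left out. Direction held in all 14 alternatives for 21 of the 36 members and changed for 15, none of them with an unadjusted p under 0.05 in the main analysis. The median log2 fold change of all genes was 0.01 in edgeR, -0.076 on the TPM scale with offset 1 and -0.15 with offset 0.1, and on these TPM scales the log2 fold change became -0.066 and -0.063 for Cdkn1c, -0.050 and -0.24 for Slc22a18, -0.016 and -0.020 for Copg2, -0.21 and -0.23 for Ube3a, -0.13 and -0.14 for Zrsr1 and -0.15 and -0.19 for Impact. Ube3a was -0.0045 with DESeq2, -0.0061 with its size factors, -0.0019 without a filter, -0.014 with a minimum of 10 counts and -0.0062 with the covariate, and Kcnq1ot1 was 0.0011 with the covariate. With 1 library left out the log2 fold change ranged from -0.0062 to 0.31 for Airn, -0.36 to 0.72 for Cdkn1c, -0.068 to 0.042 for Commd1, -0.0050 to 0.068 for Copg2, -1.23 to 0.23 for Dlk1, -0.094 to 0.042 for H13, -0.15 to 0.051 for Kcnq1ot1, -0.0092 to 0.87 for Nnat, -0.65 to 0.33 for Phlda2, -0.67 to 0.45 for Slc22a18, -0.046 to 0.024 for Ube3a, -0.85 to 0.36 for Usp29 and -0.745 to 0.082 for Zdbf2. The ratio differences ranged from -0.22 to 0.51 for Dlk1/Meg3, -0.28 to 0.44 for Igf2/H19, -0.63 to 0.25 for Kcnq1ot1/Cdkn1c and -0.039 to 0.99 for Nnat/Blcap. Plagl1 ranged from -0.79 to -0.48, with p under 0.05 in each of these fits, Peg3 from -0.45 to -0.28 Mcts2 from -0.57 to -0.34, H19 from -0.89 to -0.43, Igf2 from -0.91 to -0.40, Meg3 from -0.89 to -0.30, Sgce from -1.31 to -0.54, Peg10 from -1.17 to -0.011 and Mest from 0.10 to 1.498.

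Over all genes tested, deviations of same-numbered libraries from their group means correlated at -0.02, 0.17 and 0.02. The fibroblast level was lowest in replicate 2 of both groups, at 6.43 in WT and 6.69 in KO. Whether same-numbered mice shared a preparation is not given in the labels and was not tested. With the replicate block, 0 genes were called, 2 maternally and 5 paternally expressed members had an unadjusted p under 0.05, 4 ratios had the same sign in all 3 pairs, and Slc22a18 was at -0.062.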
